A study of Mus musculus with 8 samples.

Results

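The mRNA of 10 genes of the unfolded protein response was followed with and without the ubiquitin ligase gene Cop1 in FT1CL, a line of mouse acute myeloid leukemia cells. The 10 genes were taken by symbol from the 13378 genes of the deposited junction table, and all 10 were present: Hspa5, Hsp90b1, Sdf2l1, Dnajb9, Pdia4, Edem1, Herpud1, Xbp1, Atf6 and Ddit3. Per the series' design text, the line came from bone marrow of Cop1 cKO/Rosa26-Cre-ERT2 mice aged 8 weeks, taken 5 days after 150 mg/kg 5-fluorouracil and transduced with a pMYs retrovirus that carries Trib1. Both groups therefore carry the Trib1 vector, and both grew with 5 ng/mL interleukin-3. The 4 wild-type libraries are labelled Cop1 +/+ with no treatment. The 4 knockout libraries are labelled Cop1 ko/ko and came from cells given 4-hydroxytamoxifen, the drug that activates Cre-ERT2, so the drug and the deletion cannot be told apart. Nothing in the labels ties the libraries to separate cultures, so each p-value sets a difference only against the spread among these libraries, and that spread may be technical.

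The unfolded protein response is the program by which a cell answers misfolded protein in the endoplasmic reticulum (ER). Its 3 membrane sensors are IRE1 (gene Ern1), which splices Xbp1 mRNA, ATF6, which is cut in the Golgi to release a transcription factor, and PERK (gene Eif2ak3), which slows translation and raises ATF4 protein. The spliced XBP1 and cut ATF6 proteins induce chaperones such as Hspa5 and Hsp90b1, folding enzymes such as Pdia4, and genes of ER-associated degradation such as Edem1 and Herpud1, while ATF4 induces Ddit3.

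The knockout libraries had more mRNA of 3 of the 10 genes. Edem1, which hands misfolded glycoproteins over for degradation, rose 2.31-fold, and Pdia4, a protein disulfide isomerase, rose 1.85-fold. Dnajb9, an ER co-chaperone of Hspa5, rose 1.38-fold. None of the 10 fell, and none had a fold change under 0 in limma over all junctions and 8 libraries. The share of all 11003 genes tested that rose was 8.49%, and 12.1% fell. The values are RPM, the reads over a gene's exon junctions per 1000000 junction reads of the library, and a gene was called at an adjusted p under 0.05 in limma, with Benjamini-Hochberg adjustment over all genes tested. The median of the 10 log2 fold changes was 0.39 on the log2(RPM + 1) scale, beside a median of -0.07 and 4771 positive values over all genes tested. With TMM scaling 4 of the 10 rose and 9.92% of all genes did, and the higher genes made up 52.9% of all calls in place of 41.3%.

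Cop1 mRNA was lower in every knockout library. All 19 junctions of Cop1 were still read in the knockout libraries, with ratios of the means from 0.200 to 0.629. These values show less mRNA and do not show the deletion itself. Cop1 averaged 162 ± 2.92 RPM in the wild-type libraries and 73.7 ± 6.47 RPM in the knockout ones (SD, n = 4), with no overlap and a log2 fold change of -1.13 (SE 0.08, limma adjusted p = 4.9e-04). Libraries held 17333302 to 22469109 junction reads. In each library between 6.26% and 7.17% of the well-read junctions' values were far below what the rest of the gene predicted, at most 6 reads where at least 100 were predicted. Such values touched Hspa5, Hsp90b1 and Ddit3 among the 10 genes, and for these genes the sums without the affected junctions stand beside the sums of all junctions. That choice was made after the data were seen. In the sums without affected junctions 6 of the 10 genes rose (Hspa5, Xbp1 and Ddit3 besides the 3 above), beside 10.5% of all genes, and the median of the 10 was 0.46. With the replicate number as a block 3 of the 10 were called higher over all junctions (12.3% of all genes) and 8 without affected junctions (15.5%). Without both libraries numbered 4, the lowest of their groups in the granule markers described next, the counts were 3 (11%) and 4 (14%).

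Markers of granulocytes moved with the groups. Of 11 tested neutrophil granule markers 5 rose (Ltf, Ngp, Lcn2, Mmp8 and Cybb). That is 45.5%, beside 8.49% of all genes tested, the share that also stands beside the lists below. The list summed to 9.71 to 53.0 RPM in the wild-type libraries and to 394 to 9965 RPM in the knockout libraries. Among the latter replicate 4 was lowest and the next stood at 4226 RPM. Without knockout replicate 4, 10 of 11 were called higher, and without both libraries numbered 4, 8 of 12 (11% of all genes). Calls over all genes varied as well, from 509 to 1249 higher with 1 library left out. Primary granule markers summed to 428 to 2601 RPM in wild type, where replicate 3 was highest, and to 1968 to 3659 RPM in knockout, with 2 of 5 called higher (1 of 5 without knockout replicates 1, 2 or 3, without wild-type replicates 1, 2 or 4, or without both libraries numbered 4). Of 7 monocyte and macrophage markers 1 rose, Cd14, and 3 had a log2 fold change above 0. Their sums were 462 to 880.1 RPM in wild type and 607 to 1467 RPM in knockout. Adgre1, not called, had the highest means of that list, 240.0 and 663 RPM. Of 7 mast cell markers 3 rose: Cma1 (3.23-fold), Tpsb2 (4.59-fold) and Mcpt8 (6.32-fold). Their list summed to 12300 to 14234 RPM and 12229 to 17334 RPM. Most of that sum was Cpa3, which was not called (means of 12276 and 11699 RPM). Plasma and B cell markers, whose cells are known for a strong unfolded protein response, summed to at most 3.62 RPM in any library, and 7 of the 10 were not in the table. Their part in the results below was not tested, and in bulk RNA fewer cells of a type and less RNA per cell cannot be told apart.

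**Figure D1:**
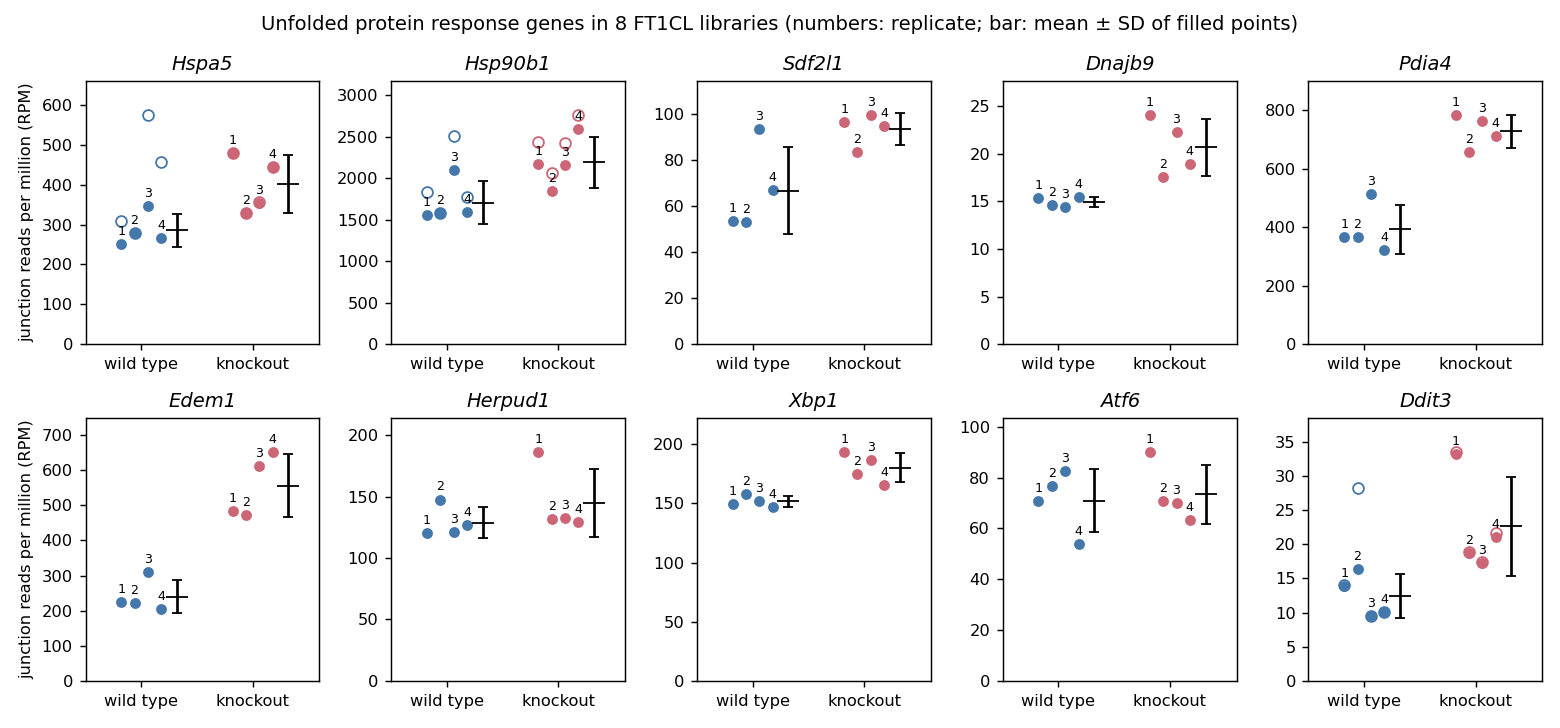
RPM (vertical axes, from 0) of the 10 genes in the 4 wild-type (blue) and 4 knockout (red) libraries, numbered by replicate; filled points are sums without affected junctions, open points sums of all junctions where these differ, and bars the mean ± SD of filled points. For Edem1, Pdia4, Dnajb9, Xbp1 and Ddit3 every filled knockout point lies above every filled wild-type point; for Hspa5 the open wild-type points reach 574 RPM.

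Promoters of some ER chaperone genes are known to hold elements that ATF6 and XBP1 bind. The bases before the start site are therefore shown for 4 genes that differ in elements and in response. Sequences are RefSeq's for build GRCm38.p6, 250 bases that end just before the start site used there, read along the gene's strand. Gene bounds given below are Gencode's, and the windows of Hspa5 and Hsp90b1 run into those bounds. The windows are chr2:34771840-34772089 (plus strand) for Hspa5, chr10:86705445-86705694 (minus strand) for Hsp90b1, chr8:94386179-94386428 (plus strand) for Herpud1 and chr6:108828391-108828640 (plus strand) for Edem1. Capitals mark matches to ERSE, ERSE-II and the C/EBP-ATF element.
Hspa5: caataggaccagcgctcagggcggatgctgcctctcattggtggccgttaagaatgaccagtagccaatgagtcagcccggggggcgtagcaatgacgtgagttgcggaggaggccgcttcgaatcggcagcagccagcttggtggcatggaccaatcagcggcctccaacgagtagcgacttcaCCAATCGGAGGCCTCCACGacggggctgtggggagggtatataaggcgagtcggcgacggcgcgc
Hsp90b1: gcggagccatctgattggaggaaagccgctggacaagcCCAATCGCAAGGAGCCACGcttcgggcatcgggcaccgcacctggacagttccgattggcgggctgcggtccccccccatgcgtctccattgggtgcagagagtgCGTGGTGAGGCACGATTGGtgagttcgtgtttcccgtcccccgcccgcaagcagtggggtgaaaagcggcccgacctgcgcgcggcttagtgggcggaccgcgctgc
Herpud1: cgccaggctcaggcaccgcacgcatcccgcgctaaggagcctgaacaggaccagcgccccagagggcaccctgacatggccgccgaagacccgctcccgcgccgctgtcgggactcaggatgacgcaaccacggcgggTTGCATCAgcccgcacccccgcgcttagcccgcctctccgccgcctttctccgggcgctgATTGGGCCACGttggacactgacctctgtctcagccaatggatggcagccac
Edem1: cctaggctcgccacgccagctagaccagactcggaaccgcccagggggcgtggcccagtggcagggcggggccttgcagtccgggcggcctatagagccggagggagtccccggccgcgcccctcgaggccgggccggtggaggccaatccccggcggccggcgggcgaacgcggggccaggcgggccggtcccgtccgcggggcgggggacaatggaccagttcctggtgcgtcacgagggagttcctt

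The motifs were searched on both strands of 300 bases, the 250 shown and 50 after the start site, in 9 of the 10 genes and in 32851 promoters in all. ERSE, here CCAAT and CCACG with 9 bases between them, was in 0.119% of all promoters and in 2 of the 9. In Hspa5 it lay from -65 to -47 relative to the start site, where -1 is the base before it. In Hsp90b1 it lay from -212 to -194 and, on the other strand, from -107 to -89. ERSE-II, here ATTGG and CCACG with 1 base between them, was in 0.0365% of all promoters and only in Herpud1 among the 9, from -52 to -42. The C/EBP-ATF element (TTGCATCA), bound by ATF4 with a C/EBP partner, was in 0.895% of all promoters and in Herpud1, from -112 to -105. The CCAAT box alone (CCAAT), which is part of every ERSE and ERSE-II match, was in 37.4% of all promoters and in 8 of the 9 genes. The UPRE core (TGACGTGG) was in 0.676% of all promoters and in 0 of the 9. Edem1 and Pdia4, the genes with the highest fold changes among those called, matched the CCAAT box but neither ERSE form. A match describes exact letters only, near matches were not searched, and binding was not measured.

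Edem1 (chromosome 6, 108828641 to 108859356 on mm10, plus strand) had 224, 222, 309 and 204 RPM in wild-type replicates 1 to 4 and 485, 473, 611 and 651 RPM in knockout replicates 1 to 4. The groups did not overlap, and wild-type replicate 3 was the highest of its group. The means were 240.0 ± 46.8 and 555 ± 89.7 RPM (SD, n = 4), with a log2 fold change of 1.21 (SE 0.16, limma adjusted p = 0.0031). All 11 junctions of Edem1 were higher in every knockout library than in every wild-type library, with ratios of the means from 2.17 to 2.43, so the rise was spread evenly along the transcript. Edem1 passed the threshold in 29 of 29 alternatives, with log2 fold changes from 1.06 to 1.34. Knockout replicate 4, lowest of its group in neutrophil granule markers, was its highest in Edem1 and Hsp90b1. The same library was the lowest of its group in Herpud1, Xbp1 and Atf6. Whether the rise of Edem1 is tied to these markers was not tested.

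Pdia4 (chromosome 6, 47796141 to 47813430, minus strand) had 367, 366, 513 and 323 RPM in wild type and 782, 656, 762 and 709.6 RPM in knockout. Again no wild-type library reached a knockout library, and wild-type replicate 3 was highest in its group. The means were 392 ± 82.8 and 727 ± 56.5 RPM (SD, n = 4), with a log2 fold change of 0.91 (SE 0.14, limma adjusted p = 0.0050). Its 9 junctions had ratios from 1.77 to 1.92, each without overlap. Pdia4 also passed in 29 of 29 alternatives, from 0.82 to 1.04.

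**Figure D2:**
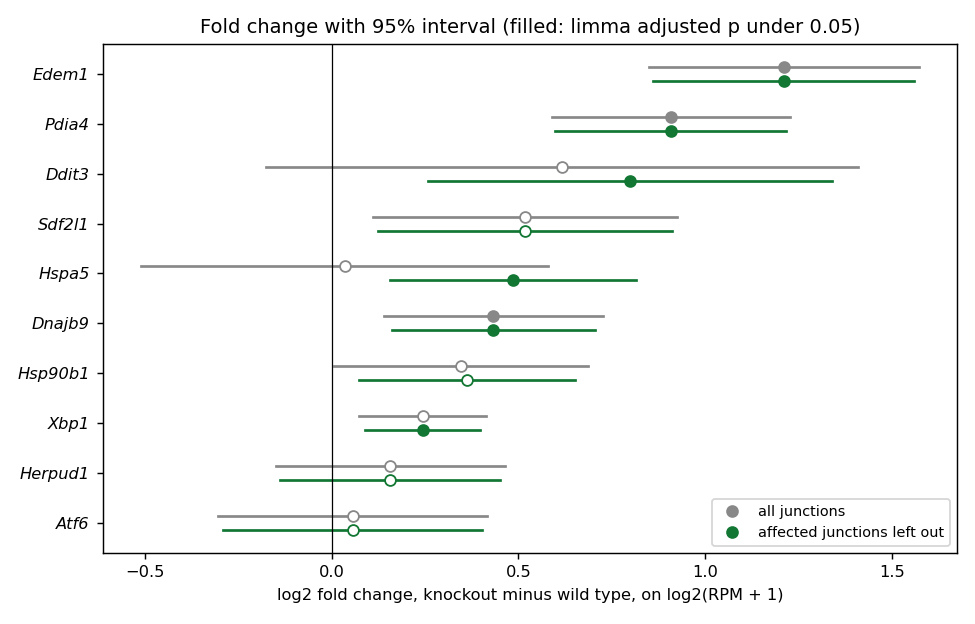
Log2 fold change, knockout minus wild type, on log2(RPM + 1) with its 95% interval from limma (horizontal axis) for each gene, from sums of all junctions (grey) and sums without affected junctions (green); filled points have an adjusted p under 0.05. Edem1 (1.21) and Pdia4 (0.91) stand highest, and Hspa5 moves from 0.03 to 0.48 between the sums.

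Hspa5, also called BiP, is the main chaperone of the ER and is thought to hold the 3 sensors inactive until misfolded protein draws it away. Over all junctions Hspa5 (chromosome 2, 34771970 to 34777547, plus strand) had 309.6, 279, 574 and 456 RPM in wild type and 480.1, 328, 355 and 445 RPM in knockout. The groups overlapped widely, with means of 405 ± 137 and 402 ± 71.9 RPM (SD, n = 4) and a log2 fold change of 0.03 (SE 0.24, limma adjusted p = 0.94). These sums rest on unequal sets of junctions. The junction of exon blocks E5.5 and E6.2 held 2758 and 2151 reads in wild-type replicates 3 and 4 and 2 to 4 reads in each of the other 6 libraries. The junction E4.6-E5.1 held 1217, 1, 1543 and 1252 reads in wild type and 4 to 8 reads in knockout.

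Without those 2 of its 10 junctions, Hspa5 had 252, 279, 346 and 265 RPM in wild type and 479.8, 328, 355 and 444 RPM in knockout. The groups still overlapped, since wild-type replicate 3 lay above knockout replicate 2. In 4 of 4 same-numbered pairs the knockout library was the higher one, though the labels state no pairing. The means were 285 ± 41.9 and 402 ± 72.0 RPM (SD, n = 4), 1.41-fold apart, with a log2 fold change of 0.48 (SE 0.15, limma adjusted p = 0.038). Its 3 well-read unaffected junctions had ratios from 1.39 to 1.41. With 1 library left out this call held in 2 of 8 fits, without knockout replicate 2 (adjusted p = 0.031) and without wild-type replicate 3 (adjusted p = 0.024), and adjusted p reached 0.096 in the other 6, without knockout replicates 1, 3 or 4 or wild-type replicates 1, 2 or 4.

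Hsp90b1 (chromosome 10, 86690209 to 86705509, minus strand) encodes GRP94, the HSP90 of the ER. Over all junctions it had 1832, 1576, 2508 and 1779 RPM in wild type and 2434, 2066, 2418 and 2756 RPM in knockout, a log2 fold change of 0.34 (SE 0.15, limma adjusted p = 0.14). Wild-type replicate 3 again stood within the knockout range. Values far below the gene fell in 4 of its 17 junctions and in both groups. Without them the wild-type libraries had 1559, 1575, 2095 and 1590.2 RPM and the knockout libraries 2167, 1846, 2155 and 2587 RPM. The means of these sums were 1705 ± 260.4 and 2189 ± 304 RPM (SD, n = 4), with a log2 fold change of 0.36 (SE 0.13, limma adjusted p = 0.066). All 12 well-read unaffected junctions had a higher knockout mean, with ratios from 1.22 to 1.32, none without overlap. For these sums adjusted p was 0.022 without wild-type replicate 3, 0.048 without knockout replicate 2 and 0.038 with the replicate number as a block, and over all junctions it was 0.028 without wild-type replicate 3.

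Sdf2l1 (chromosome 16, 17130138 to 17132383, minus strand) encodes an ER protein that works with Hspa5 and its DnaJ partners. It had 53.5, 53.3, 93.6 and 67.0 RPM in wild type and 96.8, 83.6, 99.6 and 95.02 RPM in knockout. Wild-type replicate 3 was the library that made the groups overlap. The means were 66.8 ± 19.0 and 93.7 ± 7.02 RPM (SD, n = 4), with a log2 fold change of 0.52 (SE 0.18, limma adjusted p = 0.074). Without wild-type replicate 3 the log2 fold change was 0.69 (adjusted p = 0.012), and with the replicate block adjusted p was 0.036.

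Dnajb9 (chromosome 12, 44205559 to 44210326, minus strand), a known target of spliced XBP1, had 15.4, 14.6, 14.4 and 15.4 RPM in wild type and 24.0, 17.5, 22.2 and 19.0 RPM in knockout. The wild-type libraries lay close together and below every knockout library. The means were 15.0 ± 0.522 and 20.7 ± 2.98 RPM (SD, n = 4), with a log2 fold change of 0.43 (SE 0.13, limma adjusted p = 0.0455). It had 2 junctions of 105 to 289 reads, both without overlap, with ratios of 1.37 and 1.40. The call was close to the threshold: with 1 library left out it held without knockout replicates 2 (adjusted p = 0.046) and 4 (0.042), and was lost without knockout replicates 1 or 3 or any wild-type library (0.081 to 0.12). With the replicate block adjusted p was 0.051.

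**Figure D3:**
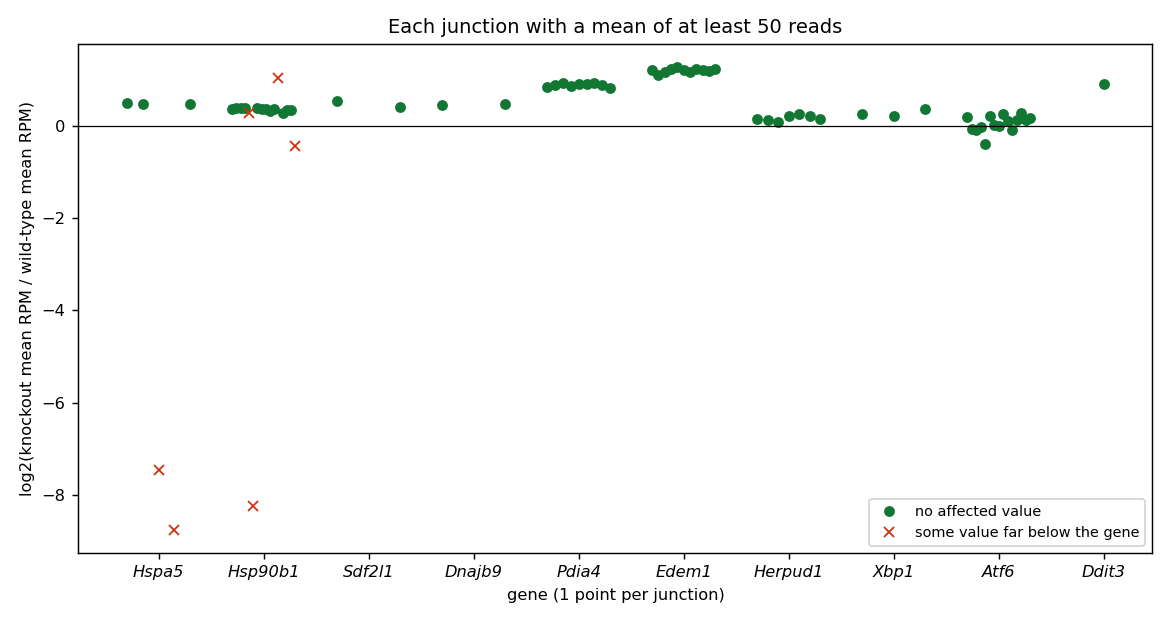
Log2 of the knockout mean over the wild-type mean, in RPM (vertical axis), for each junction with a mean of at least 50 reads, by gene (horizontal axis); green circles have no value far below the gene and red crosses have at least 1. The circles of a gene lie close together, above 0 for 9 of the 10 genes and on both sides of 0 for Atf6, while the crosses of Hspa5 lie far below 0, where the ratios are 0.0023 and 0.0057.

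Herpud1 (chromosome 8, 94386438 to 94395377, plus strand), an ER membrane protein of the degradation complex, had 120.2, 148, 121 and 127 RPM in wild type and 186, 132, 133 and 129 RPM in knockout. Knockout replicate 1 alone stood above the wild-type range. The means were 129 ± 12.8 and 145 ± 27.5 RPM (SD, n = 4), with a log2 fold change of 0.16 (SE 0.13, limma adjusted p = 0.45) and a 95% interval from -0.15 to 0.46. Herpud1, whose promoter holds the ERSE-II and C/EBP-ATF matches printed above, passed the threshold in 0 of 29 alternatives. Its limma fold change was 0.03 without knockout replicate 1.

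Xbp1 (chromosome 11, 5520659 to 5525893, plus strand) encodes the transcription factor made when IRE1 cuts its mRNA. It had 149.8, 158, 152 and 147 RPM in wild type and 193, 175, 187 and 165 RPM in knockout. The groups did not overlap, although the difference was small. The means were 152 ± 4.76 and 180.1 ± 12.4 RPM (SD, n = 4), 1.19-fold apart, with a log2 fold change of 0.24 (SE 0.07, limma adjusted p = 0.0504). Xbp1 had no affected junction of its own, but the rule for such junctions cannot flag one that is low in every library. For Xbp1 adjusted p was 0.029 in the fit of sums without affected junctions and 0.034 with TMM scaling. It was 0.041 without both libraries numbered 4 and 0.023 without knockout replicate 4. With any other library left out it was not called in either kind of sum, with adjusted p up to 0.13. Of the 10 genes 4 had no overlap over all junctions with knockout higher (Edem1, Pdia4, Dnajb9 and Xbp1), beside 9.79% of all genes tested.

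The stretch that IRE1 removes lies inside exon 4 of transcript Xbp1-201, which spans chr11:5524239-5524384 on GRCm38 in a gene model of 5 exons. It was found as the pair of CNGCAGC heptamers 26 bases apart whose removal turns a reading frame of 267 amino acids into one of 371. The 26 bases, chr11:5524279-5524304 on the plus strand, stand in capitals within exon sequence from 5524257 to 5524326, from the annotated transcript, since they decide which XBP1 protein is made.
Xbp1: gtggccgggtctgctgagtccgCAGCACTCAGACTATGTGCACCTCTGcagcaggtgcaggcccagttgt

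No junction of the table could be tied to that cut, because the numbered exon blocks carry no coordinates, so the spliced share of Xbp1 was not measured here. What the table gives is 4 junctions. Per library, E4.4-E4.8 held 1354 to 2150 reads, E3.1-E4.1 held 1156 to 1621, E2.2-E3.1 held 63 to 156 and E1.2-E2.2 held 16 to 38. The share of the gene's junction reads at E4.4-E4.8 was 53.4 ± 1.70% in the wild-type libraries and 53.8 ± 1.151% in the knockout libraries (SD, n = 4, two-sided exact permutation p = 0.886). At E3.1-E4.1 the shares were 42.4 ± 1.42% and 41.8 ± 1.29% (exact permutation p = 0.543), and at E2.2-E3.1 they were 3.39 ± 0.813% and 3.69 ± 0.580% (exact permutation p = 0.486). Adjusted over the 3 junctions tested these p-values were 0.886, 0.814 and 0.814, and the smallest p that 4 against 4 libraries allow is 0.0286. The difference in shares at each of the 3 was less than the spread between libraries. The ratio of E4.4-E4.8 to E3.1-E4.1 reads was 1.22, 1.34, 1.32 and 1.17 in wild type and 1.33, 1.21, 1.35 and 1.27 in knockout (exact permutation p = 0.657), so the higher knockout level was shared by the 2 junctions.

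**Figure D4:**
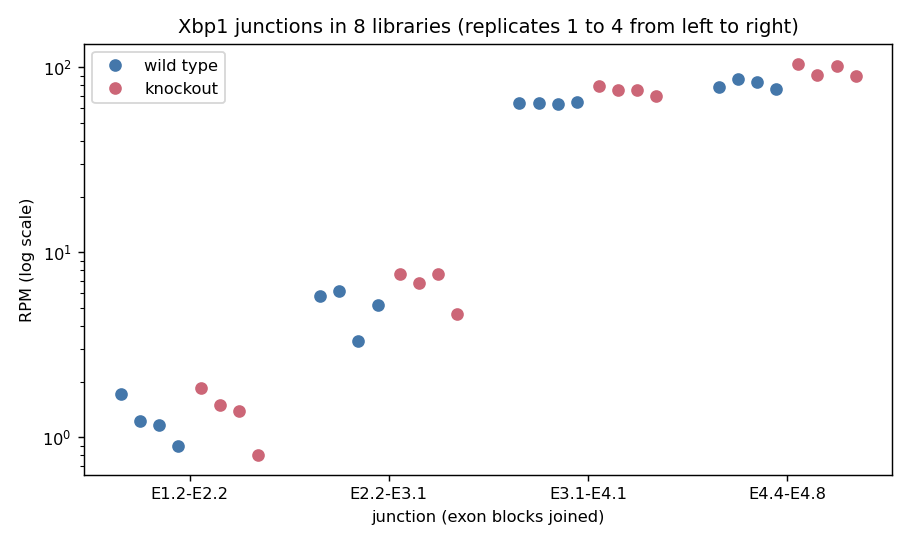
RPM (vertical axis, log scale) of the 4 Xbp1 junctions (horizontal axis, by the exon blocks they join) in wild-type (blue) and knockout (red) libraries, replicates 1 to 4 from left to right. At the 2 most-read junctions every knockout point lies above every wild-type point, and their ratio is 1.26 in wild type and 1.29 in knockout.

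Atf6 (chromosome 1, 170704674 to 170867771, minus strand), the sensor that becomes a transcription factor, had 70.6, 76.5, 82.6 and 53.8 RPM in wild type and 90.0, 70.6, 69.9 and 63.2 RPM in knockout. The groups overlapped throughout. The means were 70.9 ± 12.4 and 73.5 ± 11.5 RPM (SD, n = 4), with a log2 fold change of 0.06 (SE 0.16, limma adjusted p = 0.84) and a 95% interval from -0.31 to 0.42. Of its 15 junctions 9 had a higher knockout mean and 6 a lower one, with ratios from 0.763 to 1.21. Its direction was not settled: at its most-read junction alone the log2 fold change was -0.35.

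Ddit3 (chromosome 10, 127290774 to 127296288, plus strand) encodes CHOP, a C/EBP family factor that ATF4 induces. Over all junctions it had 14.1, 28.2, 9.52 and 10.1 RPM in wild type and 33.5, 18.9, 17.3 and 21.6 RPM in knockout, a log2 fold change of 0.62 (SE 0.35, limma adjusted p = 0.24). The overlap came from wild-type replicate 2, where the junction E3.1-E4.1 held 224 reads, beside 1 to 11 in each of the other 7 libraries. Without that junction the wild-type libraries had 13.9, 16.3, 9.47 and 10.0 RPM and the knockout libraries 33.2, 18.8, 17.3 and 21.1 RPM. All 4 knockout libraries then lay above all 4 wild-type libraries, as they did for 5 of the 10 genes in these sums and 10.9% of all genes, with means of 12.4 ± 3.26 and 22.6 ± 7.25 RPM (SD, n = 4), a difference of 0.80 on the log2 scale (SE 0.24) and a limma adjusted p of 0.037. Most of these reads come from the junction E2.1-E3.1, with 159 to 645 reads per library. With 1 library left out this call held without knockout replicates 3 (adjusted p = 0.048) and 4 (0.047) and wild-type replicate 2 (0.038), and missed in the other 5 fits, without knockout replicates 1 or 2 or wild-type replicates 1, 3 or 4 (0.058 to 0.087).

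Some libraries ranked alike for several of the genes. Over all junctions wild-type replicate 3 was the highest of its group for 6 of the 10 genes, knockout replicate 1 the highest of its group for 7, and knockout replicate 2 the lowest for 6. The genes share these libraries, so the counts describe the libraries and are not 10 separate observations. By Pearson's r with Hspa5 over the 8 libraries on log2(RPM + 1), the closest of 7697 genes were Diablo (0.890), Mrpl47 (0.866), Papss1 (0.862), Slc35b1 (0.862) and Spcs1 (0.854). In sums without affected junctions the closest of 7519 genes were H13 (0.972), Far1 (0.969), Hdlbp (0.968), Manf (0.968) and Sec23a (0.953), and the lists share no gene. The 8 points of each r hold both groups, so a gene that differs between them as Hspa5 does ranks high. Hsp90b1 moved from rank 156 (r = 0.651) to rank 21 (r = 0.908), and Pdia4 from rank 1546 (r = 0.262) to rank 33 (r = 0.880).

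Other genes of the pathway were read from the same fit, in 7 lists of 130 genes, of which 127 were tested. In all 12 rose (9.45%) and 4 fell (3.15%), with a median log2 fold change of 0.10. The share that rose was near the 8.49% of all genes tested, so the count says nothing particular to these lists, while 12.1% of all genes fell. In sums without affected junctions 15 rose (11.8%, beside 10.5% of all genes) and 7 fell, and without both libraries numbered 4 the counts were 11 (8.66%, beside 11%) and 10.

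Among 12 sensors and transcription factors 1 rose (8.33%, beside 8.49% of all genes). It was Creb3l2, an ER-bound relative of ATF6, which went from 34.1 ± 6.63 to 52.1 ± 3.12 RPM (SD, n = 4, by 0.61 on the log2 scale, limma adjusted p = 0.017, and 0.051 without wild-type replicate 2). Ern1, the gene of IRE1, had 109 ± 15.8 and 125 ± 27.5 RPM, and Eif2ak3, the gene of PERK, 59.4 ± 6.5 and 59.9 ± 7.0 RPM (SD, n = 4, adjusted p = 0.48 and 0.96), named here beside the rule as the other 2 sensors. Of 17 chaperones and co-chaperones 1 rose and 1 fell (5.88% each, beside 8.49% and 12.1% of all genes). The co-chaperone Dnajc1 rose by a log2 fold change of 0.41 (adjusted p = 0.042), which was lost in sums without affected junctions (0.095) and without each library but knockout replicate 4 (up to 0.11). Cnpy2, an ER protein of the saposin-like family, fell from 169.8 ± 7.13 to 119 ± 8.31 RPM (SD, n = 4, by -0.52 on the log2 scale, adjusted p = 0.0045).

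Of 15 ER oxidoreductases, the enzymes that form and shuffle disulfide bonds as Pdia4 does, 3 rose (20%, beside 8.49% of all genes). None of the 15 was called higher without knockout replicate 1, knockout replicate 3 or wild-type replicate 2. P4hb, the gene of protein disulfide isomerase itself, had 1669, 1585, 2161 and 1436 RPM in wild type and 2436, 2201, 2524 and 2588 RPM in knockout, with no overlap and a log2 fold change of 0.52 (SE 0.12, limma adjusted p = 0.022). Its call was lost without knockout replicates 1 or 3 or wild-type replicates 1 or 2, where adjusted p reached 0.064. Ero1lb, an oxidase that recharges disulfide isomerases, changed by 0.53 (adjusted p = 0.032) and Qsox1, a sulfhydryl oxidase, by 0.99 (adjusted p = 0.022). Both were lost without knockout replicates 1 or 3 or wild-type replicate 2, and each in 2 further fits, Ero1lb without wild-type replicates 1 or 4 (up to 0.090) and Qsox1 without knockout replicate 2 or wild-type replicate 3 (up to 0.061).

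Of 20 tested genes of ER-associated degradation 1 rose (5%, beside 8.49% of all genes). It was Derl1, a channel protein of the degradation complex, which went from 156 ± 8.91 to 194 ± 16.4 RPM (SD, n = 4, by 0.31 on the log2 scale, limma adjusted p = 0.033). Without knockout replicates 1 or 3 or wild-type replicates 1, 2 or 3 it was not called (up to 0.086). Of 20 translocon, signal peptidase and N-glycosylation genes 1 rose (5%), the oligosaccharyltransferase subunit Stt3b (0.29, adjusted p = 0.026), and it was not called without knockout replicates 2 or 3 or wild-type replicates 1, 2 or 3 (up to 0.076). Of 24 ER to Golgi transport genes 2 rose (8.33%). Sec24a, a cargo adaptor of COPII vesicles, went from 82.1 ± 8.43 to 133 ± 13.2 RPM (SD, n = 4, by 0.69 on the log2 scale, adjusted p = 0.0049). Kdelr3, a receptor that returns ER proteins from the Golgi, had 1.33, 1.11, 1.69 and 0.337 RPM in wild type and 10.7, 3.35, 2.58 and 3.20 RPM in knockout (log2 fold change 1.36, adjusted p = 0.0455), and was called with 1 library left out only without knockout replicate 4 (0.045, and up to 0.10 in the other 7 fits).

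**Figure D5:**
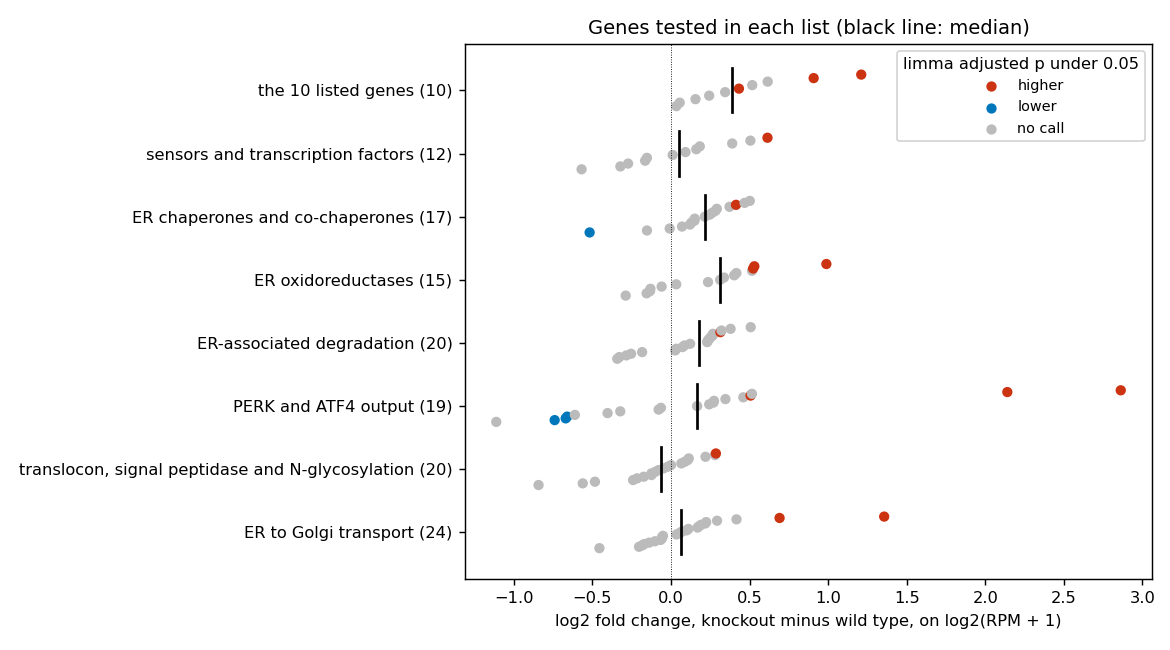
Log2 fold change, knockout minus wild type, on log2(RPM + 1) (horizontal axis) for each tested gene of the 10 and of the 7 pathway lists (rows, with the number tested); red and blue points are called higher and lower, and black lines are medians. The 10 genes have a median of 0.39, and the PERK and ATF4 list holds 3 red and 3 blue points from -0.74 to 2.86.

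The list of PERK and ATF4 output genes held 3 that rose and 3 that fell among 19 tested. Each count is 15.8%, beside 8.49% of all genes that rose and 12.1% that fell. Activity of PERK or ATF4 was not measured. Slc7a11, the cystine transporter, had 8.82, 9.98, 9.95 and 9.10 RPM in wild type and 123, 143, 52.5 and 34.0 RPM in knockout, far above every wild-type library (log2 fold change 2.86, SE 0.42, limma adjusted p = 0.0044). Atf3, a stress-induced factor, went from 3.07 ± 1.13 to 18.4 ± 8.68 RPM (SD, n = 4, 2.14, adjusted p = 0.014), and Slc3a2, the partner chain of Slc7a11, from 511 ± 11.7 to 733 ± 111 RPM (SD, n = 4, 0.51, adjusted p = 0.015). The 3 that fell are enzymes of serine synthesis and one-carbon metabolism. Phgdh went from 519 ± 89.9 to 309.6 ± 45.0 RPM (SD, n = 4, -0.74, adjusted p = 0.012), and Psat1 (-0.67, adjusted p = 0.025) and Mthfd2 (-0.66, adjusted p = 0.019) fell too. Phgdh kept its call with each library left out. Psat1 was called only without knockout replicate 4 (0.0040) or wild-type replicate 1 (0.041) and lost its call in the other 6 fits, without knockout replicates 1, 2 or 3 or wild-type replicates 2, 3 or 4 (0.051 to 0.069). Mthfd2 lost its call without knockout replicate 2 (0.053) or wild-type replicate 2 (0.056), where the number of the list that fell was 1, and without knockout replicate 4 that number was 5. Atf4 itself had 196 ± 22.5 and 209.6 ± 33.7 RPM (SD, n = 4, adjusted p = 0.67).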

How the data were processed

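RNA of 4 wild-type and 4 knockout FT1CL libraries was sequenced. Per the labels' protocols, 2 µg of column-purified total RNA entered each strand-specific library, with inserts selected at 200 bp. Per the submitters' processing notes, Trimmomatic 0.39, kallisto and build mm10 were used. Which tool counted reads over junctions, and with which annotation and filter, is not given in the sources used here. The deposited values are a normalised signal for each of 134051 AltAnalyze junctions, per the file header. Above a floor of 0.854 each value was tested to be 1 more than a whole read number, within 0.001 of a read, scaled by the library's total and a length of 60 nt. Undoing this gave the junction reads, which were summed per gene and scaled to RPM.

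limma 3.58.1 (trend and robust, R 4.3.3) was run on log2(RPM + 1), which understates folds of low genes, for 11003 genes averaging at least 1 RPM, without a block. A value was far below its gene when it held at most 6 reads where the other junctions predicted at least 100 (30081 values, 9502 junctions of 3062 genes). The limma step was tested on simulated data with known changes.

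The labels state no pairing of the libraries. Same-numbered libraries deviated together from their group means, with correlations of 0.316, 0.293, 0.356 and 0.55, and at most 0.146 between other pairs. The reported fit does not use this, and the fit with the replicate number as a block does. The 10 genes, the pathway lists and the marker lists were chosen with earlier results of these data known. All 10 genes are named, Cop1 once as a check, and from each pathway list up to 4 called genes with the smallest adjusted p. Likeness to Hspa5 names the 5 genes with the highest r among those averaging at least 10 RPM. Atf4, Ern1, Eif2ak3, Psat1, Mthfd2 and the marker genes are named outside that rule. Gene and exon coordinates are from Gencode M21 on GRCm38 (mm10), and promoter windows are those of the RefSeq sequences. The alternatives were other pseudocounts, filters, scalings, junction sets, the block, and fits without 1 library or both libraries numbered 4. A fragment over several junctions counts at each of them.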

Additional observations from a re-analysis of the deposited data

Results flagged for a closer look

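Among 26 distinct sets of 4 libraries tested (10 genes in 2 groups, and again without affected junctions where that changes the values), 2 held a library far from the other 3 by Dixon's test, where chance gives about 1 in 20. For Hsp90b1, in sums without affected junctions, wild-type replicate 3 stood at 2095 RPM and the other 3 wild-type libraries at 1559 to 1590.2 RPM. For Herpud1, knockout replicate 1 stood at 186.3 RPM and the other 3 knockout libraries at 129 to 133 RPM.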

How the results depend on the processing

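Edem1 and Pdia4 kept their direction and their call in 29 of 29 alternatives, and Herpud1 missed the threshold in all 29. Past the threshold were Dnajb9 in 13, Xbp1 in 10, Ddit3 in 7, Hspa5 in 6, Hsp90b1 in 5, Sdf2l1 in 5 and Atf6 in 0 of them. The number of the 10 genes called was 3 in the reported fit (8.49% of all genes rose) and 6 without affected junctions (10.5%). It was 8 without affected junctions and with the replicate block (15.5%). With TMM scaling in place of the block it was also 8, and the share of all genes in that fit is not given here. With 1 library left out it was 2 to 4, while 509 to 1249 of all genes were called higher. Without affected junctions as well it was 2 to 5 (5 without knockout replicate 2, knockout replicate 4 or wild-type replicate 3).

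Over all genes 2264 were called in the reported fit (934 higher, 1330 lower). Without affected junctions and with the replicate block it was 4109 (1701 higher, 2408 lower), without those junctions and knockout replicate 4 it was 3829 (1518 and 2311), and without them and both libraries numbered 4 it was 3667 (1523 and 2144). With 1 library left out it was 1215 to 2991 (509 to 1249 higher, 706 to 1742 lower). Of 127 tested genes of the pathway lists 16 were called, 12 higher and 4 lower. Without affected junctions it was 26 with TMM scaling, 30 with the block and 33 without knockout replicate 4. In the same sums it was 26 without wild-type replicate 3 and 29 without both libraries numbered 4. Over all junctions it was 7 to 28 with 1 library left out. Calls over all genes also grew with the block, without knockout replicate 4 and without both libraries numbered 4, as given above. The growth there is therefore not particular to these lists. The cause was not tested, beyond the fewer libraries or junctions of these fits.

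Signs turned for 4 values, none of them past its threshold. The log2 fold change of Hspa5 over all junctions ran from -0.1229 to 0.2223 with 1 library left out. That of Atf6 was -0.3472 at its most-read junction and -0.0022 without both libraries numbered 4, in either kind of sum, and ran from -0.0691 to 0.1344 with 1 library left out (-0.0449 without knockout replicate 1, -0.0691 without wild-type replicate 4, in either kind of sum). The share of Xbp1 reads at E4.4-E4.8 differed by -0.3311 points without both libraries numbered 4 and by -0.2152 to 0.9425 points with 1 library left out, and at E2.2-E3.1 by -0.0994 to 0.5855. The replicate block ended the call of Dnajb9 and gave one to Sdf2l1, and left the number of the 10 called at 3 (12.3% of all genes were). Depth per junction was low for Atf6 (39 to 158 reads), Dnajb9 (105 to 289) and the main junction of Ddit3 (159 to 645), which limits what single junctions can show. Planned fits with edgeR and DESeq2 were not run, because the shared floor kept 2 columns from passing a check on whole-read steps. Above that floor the values of every library gave whole reads.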
